A study of Homo sapiens with 9 samples.

Results

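The genes described here are 8 keratins of SKOV3 cells, picked by name from the deposited table: KRT7, KRT8, KRT18, KRT19, KRT17, KRT80, KRT81 and KRT86. They are 8 of 32378 genes in the table, and all 8 are among the 16450 genes that passed the filter on low counts. The choice was made with their values in the Carbo+COM33 libraries known, under a working name that says COM33 lowers them. Because the choice used these values, they cannot test that name, and only 4 of the 8 matched it. KRT7, KRT17, KRT81 and KRT86 were lower in all 3 Carbo+COM33 libraries than in any Carbo library. KRT8, KRT18 and KRT19 differed by at most a log2 fold change of -0.15 from Carbo, with overlapping libraries, and KRT80 had a log2 fold change of 0.08.

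SKOV3 is an established human ovarian cancer cell line, grown in RPMI 1640 medium with serum and antibiotics. Messenger RNA was sequenced in 3 groups of 3 libraries: control cells, cells given Carbo, and cells given Carbo together with COM33 (Carbo+COM33). Carbo was taken to be carboplatin, which platinates DNA, and COM33 is known only by this code name. The series asks by which route COM33 makes cells more sensitive to carboplatin, and its title names the epithelial-mesenchymal transition and ERK signalling. The labels give no dose, time or origin of the replicates, so a p-value measures the spread between these libraries, which may be technical. All groups are 1 cell line, and no group received COM33 without carboplatin, so an effect of COM33 alone was not measured.

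Keratins are the intermediate filament proteins of epithelial cells. A type I keratin pairs with a type II keratin, and the pairs assemble into filaments that are anchored at desmosomes and hemidesmosomes and give the cell its mechanical strength. KRT8 and KRT18 are the primary pair of simple, single-layered epithelia, with KRT7 and KRT19 added in glandular and ductal epithelia, and pathologists use KRT7 as a marker of ovarian carcinoma. KRT17 belongs to hair follicles, glands and healing skin, KRT80 is made widely in epithelia, and KRT81 and KRT86 are hair keratins. By type, KRT18, KRT19 and KRT17 are type I, and KRT7, KRT8, KRT80, KRT81 and KRT86 are type II.

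KRT81 and KRT86 are near-copies, which limits how far their counts can be told apart. On GRCh38 with GENCODE release 29, KRT81 (ENSG00000205426) lies on the minus strand of chromosome 12 from 52285913 to 52291534. KRT86 (ENSG00000170442) lies on the plus strand from 52249300 to 52309163, so that KRT81 sits inside the span of KRT86 on the opposite strand. Their coding sequences, of 1515 and 1458 bases, aligned over 1454 base pairs, of which 1369 were identical (94.2%), with an unbroken identical run of 605 bases.

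The reads were 150 bases long, and a read inside an identical run could come from either gene. Of all 150-base windows of the KRT81 transcripts, 25.1% (456 of 1816) also occurred in KRT86, and 20.3% (456 of 2241) of those of KRT86 occurred in KRT81. The other members shared little or nothing of this kind: KRT7 3.09% of its windows with its antisense gene KRT7-AS, KRT8 2.02% and KRT18 4.31% with each other, and KRT19, KRT17 and KRT80 0. KRT8 and KRT18 share 525 exonic bases on opposite strands, and whether counting used the strand is not given in the sources used here, so reads from that overlap cannot be assigned to 1 of them. How the authors' counting treated reads with several matches is likewise not stated.

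The 9 libraries held 13851760 to 15533668 counts, with scaling factors between 0.982 and 1.01. Of 10 ovarian carcinoma markers, ERBB2 was highest, at 141 to 245 FPKM (fragments per length of exon and library size, as deposited), and PAX8 lay at 38.0 to 70.4 FPKM. Of these markers 2 had a mean under 1 FPKM, among them WT1 at 0.333 to 0.562 FPKM. CDH1, the E-cadherin gene, had 11 counts over all 9 libraries, and VIM, the filament protein of mesenchymal cells, lay at 121 to 191 FPKM. Markers of blood cells (7 in the table, at most 0.646 FPKM summed) and of endothelium (6, at most 0.442 FPKM summed) were near 0 in each library. The 8 fibroblast markers summed to 1.09 to 4.31 FPKM in control, 1.13 to 4.30 in Carbo and 0.649 to 1.40 in Carbo+COM33, with COL1A1 alone at 0.559 to 3.89. Their part in the keratin values was not tested. In these whole-culture samples, fewer cells with a transcript and less of it per cell cannot be told apart.

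KRT80 and KRT19 were the highest of the 8 keratins in control cells when divided by exon length. In counts scaled to a common library size (CPM), KRT8 (mean 399) stood above KRT19 (mean 360). KRT8 has 6881 exonic bases and KRT19 has 2336, so the order below depends on that division. Per length, KRT80 stood at 203 ± 24.6 FPKM (SD, n = 3), rank 90 of the 16450 tested genes, and KRT19 at 155 ± 11.1 FPKM, rank 133. KRT7 (74.7 ± 19.5 FPKM, rank 392) and KRT8 (58.2 ± 2.71 FPKM, rank 550) followed, with overlapping libraries. KRT18 (42.3 ± 5.32 FPKM) and KRT17 (27.9 ± 6.68 FPKM) came next, each clear of its neighbours. The hair keratins KRT81 (3.23 ± 2.05 FPKM) and KRT86 (0.837 ± 0.155 FPKM) were lowest and overlapped. The order was the same in Carbo; in Carbo+COM33, KRT7 (32.4 ± 4.51 FPKM) stood below KRT8 (48.1 ± 5.57 FPKM) and level with KRT18 (33.3 ± 3.82 FPKM), and KRT81 (0.287 ± 0.175 FPKM) and KRT86 (0.330 ± 0.111 FPKM) again overlapped.

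**Figure D1:**
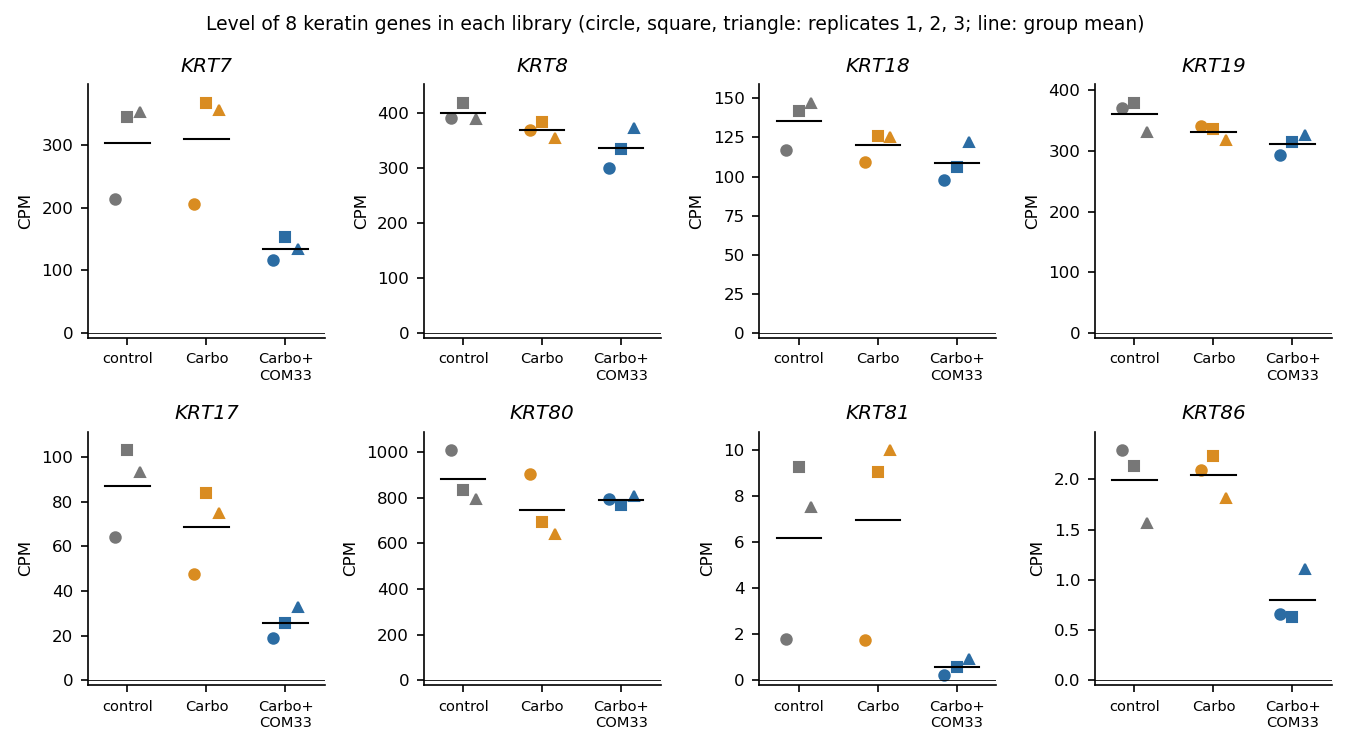
Level of each of the 8 keratin genes in CPM (counts scaled to a common library size, linear axis from 0) in the 9 libraries; circles, squares and triangles are replicates 1, 2 and 3, and the line is the group mean of n = 3. KRT7, KRT17, KRT81 and KRT86 sit lower in all 3 Carbo+COM33 libraries. Replicate 1 of control and Carbo is the lowest of its group for KRT7, KRT18, KRT17 and KRT81.

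KRT8 and KRT18, the primary pair of simple epithelia, were little different between Carbo and Carbo+COM33. In CPM (counts scaled to a common library size), KRT8 (ENSG00000170421, chromosome 12, 52897187 to 52949954) had 390, 418 and 389 in control 1 to 3, 368, 383 and 354 in Carbo, and 299, 335 and 373 in Carbo+COM33. Carbo+COM33 3 lay among the Carbo libraries, while all 3 Carbo+COM33 libraries lay under the controls. The log2 fold change of KRT8 was -0.13 (SE 0.0883) against Carbo and -0.25 against control. KRT18 (ENSG00000111057, chromosome 12, 52948871 to 52952901) had 117, 142 and 147 CPM in control, 109, 126 and 125 in Carbo, and 98, 106 and 122 in Carbo+COM33. Its groups overlapped in each comparison, with log2 fold changes of -0.15 (SE 0.109) against Carbo and -0.32 against control. The ratio of KRT8 to KRT18 per length was 1.39 ± 0.161 in control, 1.44 ± 0.132 in Carbo and 1.45 ± 0.0270 in Carbo+COM33 (SD, n = 3), and the groups overlapped. In CPM, with no division by length, the mean ratios were 2.97, 3.08 and 3.09.

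KRT19, the smallest keratin and one without the usual tail domain, was also close to its Carbo level. It had (ENSG00000171345, chromosome 17, 41523617 to 41528308) 371, 379 and 331 CPM in control, 341, 336 and 318 in Carbo, and 293, 315 and 326 in Carbo+COM33. Carbo and Carbo+COM33 overlapped, with a log2 fold change of -0.09 (SE 0.0804), while Carbo+COM33 lay under each control library (log2 fold change -0.21).

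KRT7, the type II keratin of glandular epithelia, was lower by more than 2-fold when COM33 was added. KRT7 (ENSG00000135480, chromosome 12, 52232520 to 52252186) had 215, 345 and 353 CPM in control, 207, 368 and 356 in Carbo, and 116, 153 and 135 in Carbo+COM33. Replicate 1 of control and of Carbo was far under the other libraries of its group, yet above all 3 Carbo+COM33 libraries. The means were 304 ± 77.6, 310 ± 89.9 and 135 ± 18.3 CPM (SD, n = 3). Its log2 fold change was -1.21 (SE 0.217, 2.31-fold lower) against Carbo and -1.18 against control, and with control 1 and Carbo 1 both left out it was -1.42 and -1.37.

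The ratio of KRT7 to KRT8 was lower with COM33. Per length it was 0.927, 1.39 and 1.53 in control 1 to 3 and 0.943, 1.62 and 1.69 in Carbo, against 0.654, 0.767 and 0.607 in Carbo+COM33. By this measure replicate 1 of control and Carbo held slightly less KRT7 than KRT8, and the other 4 libraries of those groups held more. All 3 Carbo+COM33 libraries held less. In CPM, with no division by length, mean KRT7 was under mean KRT8 already in control (304 against 399) and Carbo (310 against 368). In Carbo+COM33 the means were 135 and 336. Which gene stood higher in control and Carbo thus depended on the division by length.

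KRT17, the type I keratin of appendages and wounded skin, was lower by more than 2-fold as well. KRT17 (ENSG00000128422, chromosome 17, 41619441 to 41624842) had 64.2, 103 and 93.4 CPM in control, 47.4, 83.8 and 75.0 in Carbo, and 19, 25.4 and 33.0 in Carbo+COM33. As with KRT7, replicate 1 was lowest in control and in Carbo and still stood above each Carbo+COM33 library. The log2 fold change was -1.41 (SE 0.236, 2.66-fold lower) against Carbo and -1.75 (SE 0.237, 3.36-fold lower) against control. It was -1.61 and -1.93 without control 1 and Carbo 1. The ratio of KRT17 to KRT19, the other member on chromosome 17, was 0.181 ± 0.0449 in control, 0.155 ± 0.0450 in Carbo and 0.0614 ± 0.0137 in Carbo+COM33 per length (SD, n = 3).

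KRT80, the most abundant member, did not follow the name under which these genes were picked. KRT80 (ENSG00000167767, chromosome 12, 52168996 to 52192000) had 1009, 836 and 797 CPM in control, 904, 695 and 641 in Carbo, and 793, 770 and 810 in Carbo+COM33. The Carbo+COM33 libraries lay within the range of Carbo, and replicate 1 was the highest of control and of Carbo, the opposite of KRT7 and KRT17. The log2 fold change of 0.08 (SE 0.124) against Carbo became 0.25 without control 1 and Carbo 1, where KRT80 was called higher, and -0.02 without Carbo 3. Against control it was -0.15.

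The hair keratin KRT81 had the largest fold difference of the 8, from few counts. It had 26, 139 and 110 counts in control, 26, 142 and 144 in Carbo, and 3, 8 and 13 in Carbo+COM33. In CPM these were 1.80, 9.26 and 7.53, then 1.75, 9.04 and 10.0, then 0.221, 0.559 and 0.900. Replicate 1 of control and Carbo was far under the other libraries of its group, and the Carbo+COM33 libraries were lower still. The log2 fold change was -3.60 (SE 0.767, 12.1-fold lower) against Carbo and -3.44 against control, with large errors.

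KRT86 was at 33, 32 and 23 counts in control, 31, 35 and 26 in Carbo, and 9, 9 and 16 in Carbo+COM33. No library of control or Carbo stood apart for KRT86 as replicate 1 did for KRT81. The log2 fold change was -1.34 (SE 0.315, 2.53-fold lower) against Carbo and -1.31 against control. Per length, KRT81 to KRT86 was 0.978, 5.39 and 5.94 in control, 1.04, 5.04 and 6.87 in Carbo, and 0.414, 1.10 and 1.01 in Carbo+COM33. The near-copies thus stood at a ratio near or under 1 in replicate 1 of control and Carbo and in all Carbo+COM33 libraries, and above 5 in the other 4. Because reads of the identical stretches can be assigned to either gene or to neither, both single values are uncertain; their summed counts were 59, 171 and 133, then 57, 177 and 170, then 12, 17 and 29.

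Counted over the members, 4 of 8 were lower and 0 higher among the genes called (edgeR's quasi-likelihood test, Benjamini-Hochberg adjusted p under 0.05) in Carbo+COM33 vs Carbo. Over all genes tested, 2.53% were called lower and 4.96% in either direction. The members were chosen on this comparison, so no p is given for them and nothing is read from the count. The same 4 were called in Carbo+COM33 vs control, where 3.09% of genes were called lower and 6.29% in either direction; both comparisons use the same 3 Carbo+COM33 libraries. The 3 CPM values did not overlap, with Carbo+COM33 lower, for 4 of 8 members against Carbo (11.9% of all tested genes) and for 6 of 8 against control (14.4%; all but KRT18 and KRT80). The median log2 fold change of the 8 was -0.68 against Carbo and -0.75 against control, beside -0.01 over all tested genes in each comparison.

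**Figure D2:**
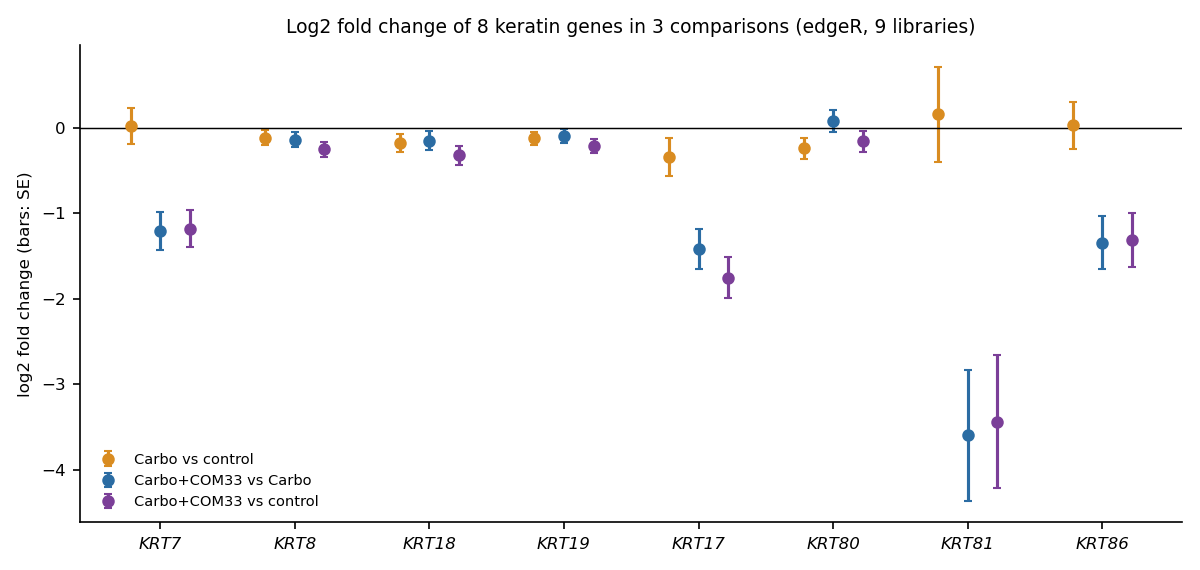
Log2 fold change of the 8 keratin genes (points) with its standard error (bars) in the 3 comparisons, from 1 edgeR fit over 9 libraries. In both comparisons with Carbo+COM33, KRT7, KRT17, KRT81 and KRT86 lie at -1.18 or lower and KRT8, KRT18, KRT19 and KRT80 between -0.32 and 0.08; the Carbo vs control values lie between -0.34 and 0.16.

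Which of the 4 were called depended on single libraries, except for KRT17, which was called in each of 21 alternative settings in both comparisons. These settings reuse the libraries by whose values the members were chosen, so they describe the calls and add no support for them. Against Carbo, KRT7 was not called without Carbo 2 (log2 fold change -1.06) or without Carbo+COM33 1 (-1.10). With any 1 library left out, KRT81 was called in 4 of 9 cases (log2 fold change -4.11 to -3.23) and KRT86 in 4 of 9 (-1.65 to -1.19). Against control, KRT7 was called in 6 of 9 cases (-1.37 to -1.06), KRT81 in 5 of 9 (-3.95 to -3.02) and KRT86 in 3 of 9 (-1.62 to -1.15), and of these 4 genes KRT17 alone was called without control 2, without control 3 or without Carbo+COM33 1. The direction of all 4 held in each setting.

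Carbo vs control asks whether carboplatin alone moved these keratins; the Carbo libraries here are those of the comparison that chose the genes. The 3 CPM values of KRT8 lay under those of control without overlap, as for 11.7% of tested genes, and those of the other 7 overlapped. With libraries unpaired, edgeR's quasi-likelihood test called 0 of the 8 members and 0 of 16450 genes (0%). Before adjustment 2748 genes (16.7%) had p under 0.05, and DESeq2 called 128. Same-numbered control and Carbo libraries deviated together from their group means, as the low replicate 1 of KRT7, KRT17 and KRT81 shows, so a fit with the replicate number as a block was also made. In it 23.4% of genes were called, 11.9% lower, and 3 of 8 keratins fell: KRT17, KRT80 and KRT18.

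KRT17 was lower in 3 of 3 pairs, by a log2 fold change of -0.35 (SE 0.0563, adjusted p = 0.000302, edgeR's paired quasi-likelihood test, adjusted by Benjamini-Hochberg). KRT80 was lower in 3 of 3 pairs, by -0.25 (SE 0.0460, adjusted p = 0.000894, same edgeR test). KRT18 was lower in 3 of 3 pairs, by -0.17 (SE 0.0502, adjusted p = 0.0174, same edgeR test). In the paired fit KRT17 thus stood lower in Carbo than in control, while unpaired its libraries overlapped and it was not called. It was lower again in Carbo+COM33, in the comparison on which it was chosen. The step to Carbo+COM33 left KRT80 and KRT18 where their libraries overlapped with Carbo.

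KRT8 (-0.12, adjusted p = 0.0624, edgeR) and KRT19 (-0.12, adjusted p = 0.0584, edgeR) did not pass the test, although each was lower in 3 of 3 pairs, as were 26.3% of all tested genes. KRT7 had a paired log2 fold change of 0.02, KRT81 of 0.15 and KRT86 of 0.03, and none of these passed. The pairs of KRT7 were at -0.06, 0.09 and 0.01 on the log2 scale, so that its low replicate 1 was low to the same degree in both groups.

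These paired calls changed with single pairs left out and with a correction for base composition. Without pair 2, KRT80 (-0.24) and KRT18 (-0.17) were not called, nor was KRT18 without pair 3 (-0.14). Without pair 1, KRT8 was called (-0.14), and without pair 3 KRT19 (-0.15). The longest transcripts of the 8 members hold 55.7% to 62.9% G and C. After each library's trend over GC content and length was taken out, 10.8% of genes were called with pairing, among them KRT17 lower (-0.19) and KRT7 higher (0.25); KRT80 (-0.12) and KRT18 (-0.05) were not called, and KRT8 (0.01) and KRT19 (0.11) turned from below to above 0.

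Added together, the 8 members made up less of the library in Carbo+COM33. They were chosen with these values known, so nothing is read from the lower sum, and it leaves out all other keratins. The 8 members took 0.216%, 0.226% and 0.213% of all counts in control 1 to 3, 0.199%, 0.203% and 0.188% in Carbo, and 0.159%, 0.168% and 0.178% in Carbo+COM33. No 2 groups overlapped, and the order was control, Carbo, Carbo+COM33. Their summed FPKM was 565 ± 19.98, 509 ± 18.2 and 433 ± 24.6 (SD, n = 3).

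Type II and type I transcripts stayed in the same proportion as the total shrank. The ratio of summed type II to type I FPKM was 1.51 ± 0.0798 in control, 1.52 ± 0.0775 in Carbo and 1.51 ± 0.0562 in Carbo+COM33. KRT80, at 36.0%, 33.9% and 41.5% of the summed FPKM, set much of that ratio. Without KRT80 it was 0.607 ± 0.0841 in control, 0.663 ± 0.104 in Carbo and 0.469 ± 0.0231 in Carbo+COM33, and all 3 Carbo+COM33 libraries lay under the other 6. KRT7 took 13.2% ± 3.36 of the summed FPKM in control and 7.47% ± 0.892 in Carbo+COM33, and KRT17 4.92% ± 1.09 and 1.86% ± 0.413.

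**Figure D3:**
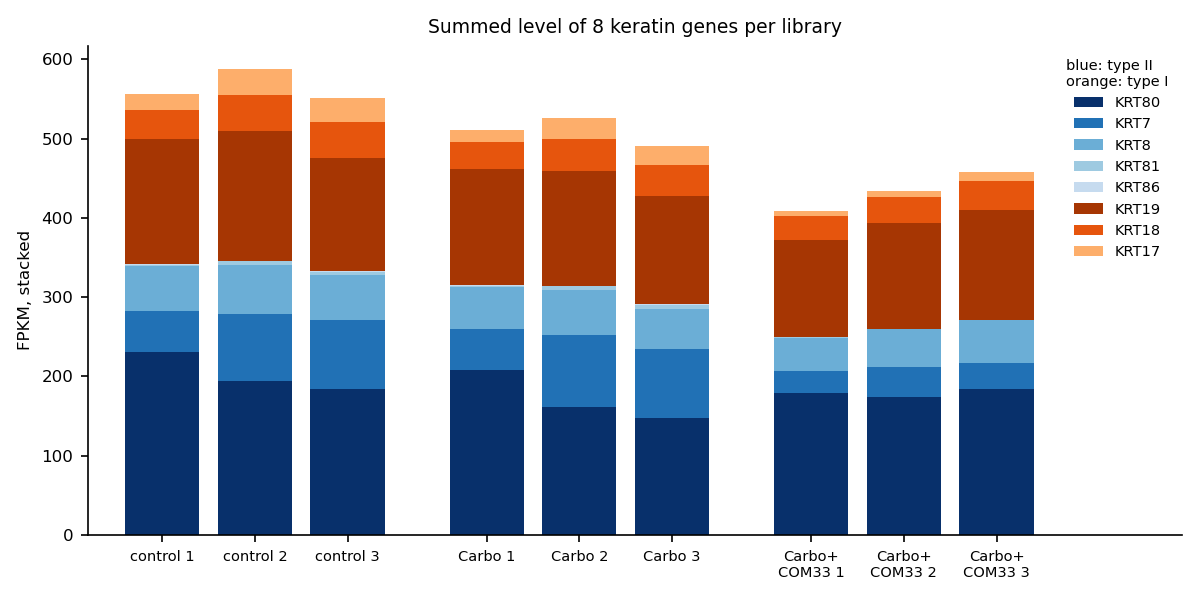
FPKM of the 8 keratin genes stacked per library, type II members in blue and type I members in orange. The summed level is 551 to 588 in control, 490 to 526 in Carbo and 408 to 457 in Carbo+COM33, and KRT80 and KRT19 form the bulk of it in every library.

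Across the 9 libraries KRT7, KRT17 and KRT81 varied together, and KRT18 partly followed them. As a description over libraries that share their groups, Pearson's r of log2 CPM was 0.98 for KRT7 with KRT81, 0.96 for KRT17 with KRT81 and 0.95 for KRT7 with KRT17. Over the 6 control and Carbo libraries alone, where replicate 1 stood apart, r was 0.99, 0.84 and 0.85. KRT80 had r = -0.33 with KRT7, -0.35 with KRT81 and -0.08 with KRT17 over 9 libraries, and -0.81, -0.83 and -0.40 over those 6. KRT18 had r = 0.80 with KRT7, 0.87 with KRT17 and 0.85 with KRT81 over 9 libraries, and 0.78, 0.94 and 0.75 over those 6. KRT8 and KRT19 had r = 0.89 with each other over 9 libraries, and KRT8 and KRT18 had 0.82. Over those 6 the values were 0.81 and 0.56.

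A search of 16432 other genes for the pattern most like the mean of the 8 standardized keratin profiles gave VAV2 (r = 0.993), CRIP2 (0.991), FTSJ1 (0.984), SLC25A29 (0.982), NFIC (0.982) and ZZEF1 (0.980), over 9 libraries and with no p. CRIP2 is a LIM-domain protein, and NFIC is a transcription factor. CRIP2 was at 451 ± 44.7 CPM in control, 371 ± 41.9 in Carbo and 257 ± 35.1 in Carbo+COM33 (SD, n = 3). Its log2 fold change of -0.53 against Carbo was smaller in size than those of KRT7 and KRT17. VAV2 (-0.30), FTSJ1 (-0.27), SLC25A29 (-0.43) and ZZEF1 (-0.25) were not called against Carbo, while CRIP2 and NFIC (-0.33) were. With any 1 library left out, CRIP2 was called in 5 of 9 cases and NFIC in 3 of 9. All 6 were picked for their likeness to keratins chosen with the Carbo+COM33 values known, so nothing is read from these calls.

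The 8 genes lie in the keratin clusters of chromosome 12 (6 members) and chromosome 17 (2 members), and in each the members that were lower lay beside members and other genes that were not. The chromosome 12 members span 783.9 kb with 26 genes of the table, 10 of them tested. KRT80 (log2 fold change 0.08 in Carbo+COM33 vs Carbo) lies 40.5 kb before KRT7 (-1.21). From the start of KRT7, KRT7-AS (-1.27), KRT86 (-1.34), the pseudogene KRT87P (0.03) and KRT81 (-3.60) all lie within 76.6 kb. KRT8 (-0.13) and KRT18 (-0.15) begin 588 kb past KRT86, and none of the genes between passed the filter on low counts.

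KRT7-AS, an antisense gene inside KRT7, had 53, 91 and 82 counts in control, 54, 80 and 99 in Carbo, and 23, 35 and 33 in Carbo+COM33. It shares 282 exonic bases with KRT7, so without a known strand setting its reads and those of KRT7 cannot be told apart. KRT7 was chosen on Carbo+COM33 vs Carbo, so no p is given for KRT7-AS there. KRT7-AS was called against Carbo with all 9 libraries, but not without Carbo 2, Carbo 3 or any Carbo+COM33 library. Its log2 fold change was -1.48 to -1.02 over the 9 libraries left out in turn. KRT87P overlapped between Carbo and Carbo+COM33. Outside the run, the nearest tested genes were ATG101, an autophagy factor (0.40, adjusted p = 0.200, edgeR), and EIF4B, a translation initiation factor. EIF4B fell from 272 ± 22.1 CPM in Carbo to 200.3 ± 3.44 in Carbo+COM33 (SD, n = 3; log2 fold change -0.44, edgeR adjusted p = 0.0106); it was not called without Carbo 2 or without Carbo+COM33 2. The noncoding genes LINC00592 (-0.21) and C12orf80 (-0.30) were not called.

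On chromosome 17, KRT19 and KRT17 span 101.2 kb. KRT16, a type I keratin of wounded skin that lies 3.54 kb from KRT17, had 51, 82 and 75 counts in control, 41, 51 and 31 in Carbo, and 23, 25 and 23 in Carbo+COM33. Its groups did not overlap in any comparison, in the order control, Carbo, Carbo+COM33, with log2 fold changes of -0.70 against Carbo and -1.49 against control. KRT15, next to KRT19, had 0.19 against Carbo with overlapping libraries. EIF1, a translation initiation factor past KRT17, had 0.39 (adjusted p = 0.0967, edgeR) and was not called.

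**Figure D4:**
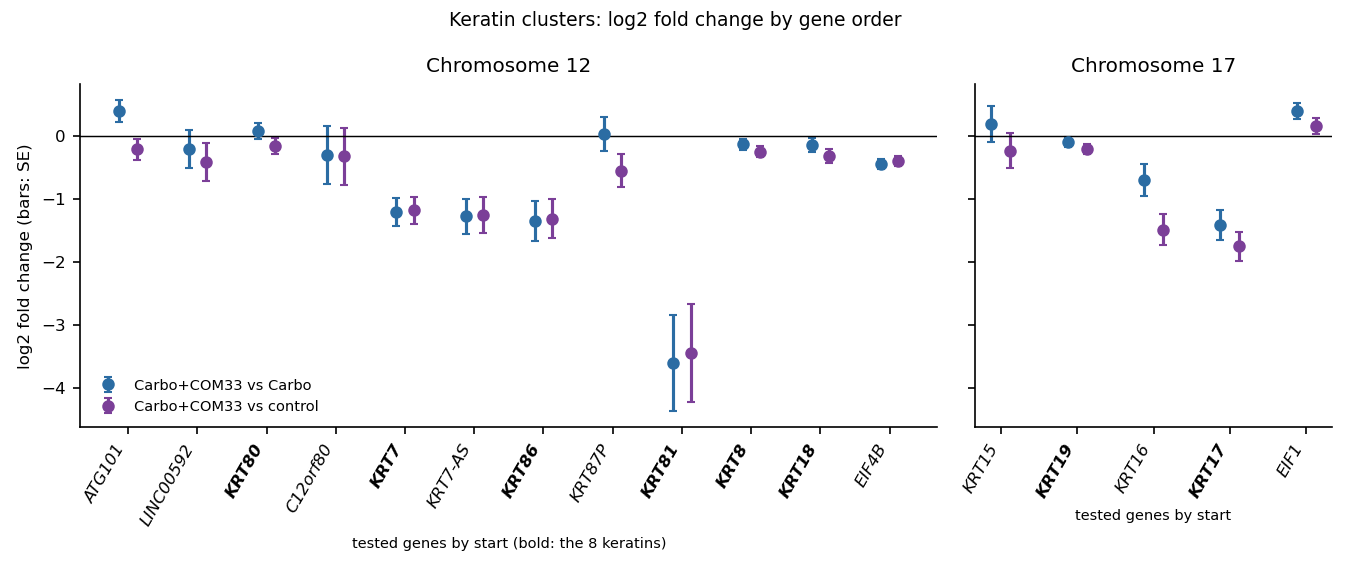
Log2 fold change (points) and standard error (bars) of the tested genes of the keratin clusters of chromosomes 12 and 17, in order of their start position but not to scale, for Carbo+COM33 against Carbo and against control. KRT7, KRT7-AS, KRT86 and KRT81 lie at -1.18 or lower around KRT87P at 0.03 and -0.55, and KRT17 and KRT16 are the low genes on chromosome 17.

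Of 47 other keratin genes listed, 30 were in the table and 4 passed the filter on low counts, all of type I: KRT10, KRT15, KRT16 and KRT34. The 26 others in the table had at most 42 counts over the 9 libraries, the highest being KRT14. KRT10, a keratin of differentiating epidermis, had 79.5, 42.0 and 45.0 CPM in control, 41.7, 27.2 and 29.5 in Carbo, and 58.2, 46.6 and 72.7 in Carbo+COM33. All 3 Carbo+COM33 libraries of KRT10 lay above Carbo, the reverse of KRT17, with a log2 fold change of 0.85 against Carbo and 0.09 against control. KRT34, a hair keratin, was at 24, 26 and 21 counts in control, 50, 23 and 22 in Carbo, and 38, 60 and 41 in Carbo+COM33, and Carbo+COM33 overlapped with Carbo through Carbo 1. Keratins were sorted into the 8 by their values with COM33, so no p is given for these 4 there.

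KRT8 and KRT18 have many processed pseudogenes that can draw their reads. The table holds 63 pseudogenes of the members, 4 of which were tested, and they summed to 268 to 377 counts per library. Counts on KRT8 pseudogenes came to 4.19% to 5.75% of those on KRT8 in control and Carbo and 6.20% to 7.25% in Carbo+COM33. Their share of reads that belong to KRT8 was not tested.

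Beyond the keratins, lamins and cytoplasmic filaments such as vimentin belong to the same protein family. Among 9 tested genes of other intermediate filaments, 1 was called lower and 0 higher in Carbo+COM33 vs Carbo (median log2 fold change -0.10, beside -0.01 over all tested genes). The called gene was LMNB1, lamin B1 of the nuclear lamina, which fell from 53.3 ± 6.93 CPM in Carbo to 35.6 ± 3.15 in Carbo+COM33 (SD, n = 3; log2 fold change -0.58, edgeR adjusted p = 0.0128). Control had 37.3 ± 3.07 CPM, and the log2 fold change of Carbo+COM33 against control was -0.07.

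Of 20 tested genes of desmosomes, hemidesmosomes and the plakins that tie filaments to them, 2 rose and 2 fell (median 0.05). JUP, the plakoglobin that links desmosomal cadherins to filaments, fell from 156 ± 27.0 CPM in Carbo to 94.5 ± 7.42 in Carbo+COM33 (SD, n = 3; log2 fold change -0.72, edgeR adjusted p = 0.0104), with 155 ± 21.7 in control. PPL, the plakin periplakin, fell from 26.1 ± 3.09 to 16.6 ± 2.06 CPM (-0.65, edgeR adjusted p = 0.0164). For JUP and PPL, as for KRT7 and KRT17, replicate 1 was the lowest of control and of Carbo.

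Of 22 tested genes of keratin-binding proteins, chaperones and modifying enzymes, 2 rose and 0 fell (median 0.03). SQSTM1, the autophagy receptor p62, rose from 688 ± 155 CPM in Carbo to 1030 ± 31.2 in Carbo+COM33 (SD, n = 3, log2 fold change 0.58, edgeR adjusted p = 0.0375). Control had 830 ± 126 CPM, and SQSTM1 was not called against control (log2 fold change 0.31, edgeR adjusted p = 0.206).

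Of 31 tested transcription factors of keratin and epithelial genes, 2 rose and 5 fell (median -0.08). TFAP2A, the AP-2 alpha factor of epidermal and keratin genes, fell from 39.8 ± 8.35 CPM in Carbo to 22.2 ± 0.526 in Carbo+COM33 (SD, n = 3; -0.84, edgeR adjusted p = 0.0119), with 34.4 ± 6.61 in control. KLF5, a Krüppel-like factor of proliferating epithelium, fell from 272 ± 31.2 to 176 ± 6.96 CPM (-0.62, edgeR adjusted p = 0.00379). RARG, a retinoic acid receptor, fell from 84.9 ± 14.7 to 56.2 ± 7.29 CPM (-0.60, edgeR adjusted p = 0.0260). All 3 were also called lower against control, at -0.63, -0.44 and -0.58.

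Genes of simple epithelium other than keratins gave 1 of 26 called lower and 0 higher (median -0.11), and this was CD24, a surface glycoprotein. CD24 fell from 320 ± 48.4 to 233 ± 16.3 CPM (SD, n = 3; -0.46, edgeR adjusted p = 0.0271), with 241 to 262 in control. These lists were drawn up with results of these data known, and their shares stand beside the 4.96% of all genes called. Of the genes named from them, KLF5 stayed under the threshold whichever of the 9 libraries was dropped. LMNB1, JUP, PPL, SQSTM1, TFAP2A, RARG and CD24 were each not called without Carbo 2, among other libraries.

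**Figure D5:**
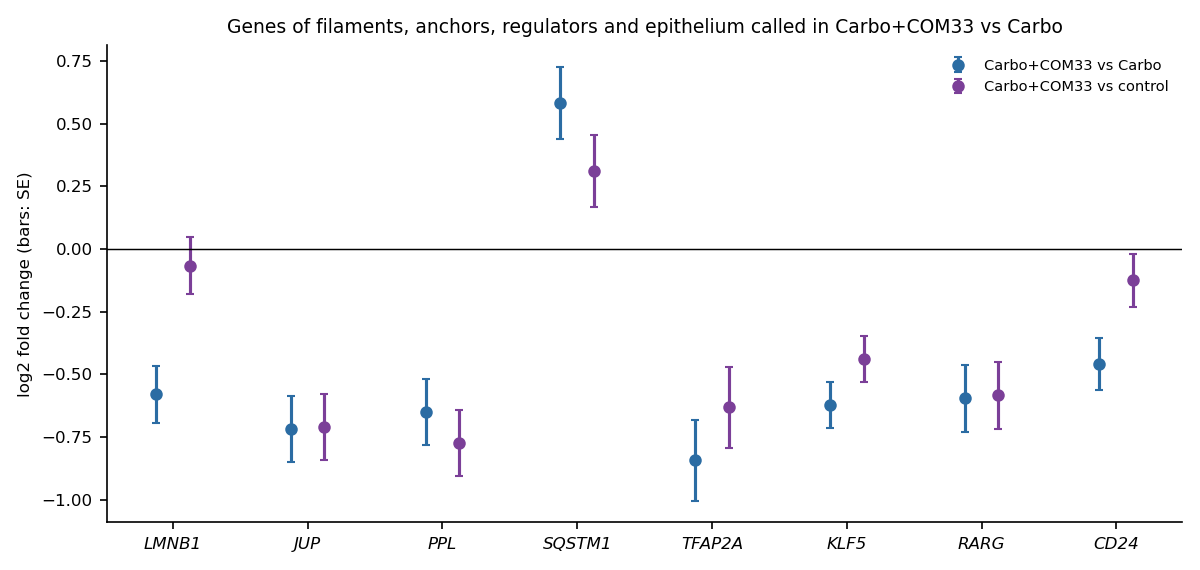
Log2 fold change (points) and standard error (bars) of 8 genes from the filament, anchor, regulator and epithelium lists that were called in Carbo+COM33 vs Carbo. SQSTM1 lies above 0 in both comparisons but was called only against Carbo. LMNB1 and CD24, at -0.58 and -0.46 against Carbo, lie at -0.07 and -0.13 against control.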

How the data were processed

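RNA was measured in 9 SKOV3 libraries, 3 each of control, Carbo and Carbo+COM33, grouped by their labels; per the labels, poly-T selected RNA was sequenced in paired reads of 150 bases. The authors deposited raw read counts per gene and FPKM values in 1 table. HISAT2, HTSeq 0.11.2, DESeq2 1.26.0 and GRCh38 were used, per the submitters' processing notes; settings and strand are not given in the sources used here. All 32378 gene identifiers matched GENCODE release 29, which gave coordinates, exons and sequences.

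Counts were fitted with edgeR 4.0.16 in R 4.3.3 (filterByExpr, TMM scaling, quasi-likelihood test, 1 coefficient per group, 6 residual degrees of freedom), and p was adjusted by Benjamini-Hochberg over 16450 genes, with a gene called below 0.05. CPM are counts scaled to a common size by the TMM-scaled library size. FPKM, used as deposited, served to compare genes. Total counts were 13851760 to 15533668 per library, which limits the precision of genes with few counts, such as KRT81 and KRT86. The unpaired fit was run on simulated counts in which 200 genes changed 2-fold and same-numbered libraries shared no deviation. In Carbo+COM33 vs Carbo it called 159 of the 200 and 11 others. Its behaviour under shared deviations was not tested.

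Deviations of same-numbered libraries from their group means were compared over 6607 genes with a mean log2 CPM above 5. For control and Carbo they correlated at 0.824, 0.565 and 0.748, each over 0.1, so that a fit with the replicate number as a block is given beside that comparison. The pairing comes from this check, since the labels do not explain the numbers. Carbo 2 with control 3 (0.402) and Carbo 3 with control 2 (0.254) also passed 0.1, so that bar alone does not single out equal numbers. Replicate 1 of either group gave -0.779 to -0.446 with other numbers. Each Carbo library correlated best with the control of its own number. Same-numbered libraries did not each pass 0.1 in the comparisons with Carbo+COM33 (-0.388 to 0.138 with Carbo and -0.420 to 0.101 with control).

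Alternatives were DESeq2 1.42.0, other size factors, no filter, only the 6 libraries compared, the block, a spline trend of GC content and length removed per library, each library left out, and, added after the data were seen, the block without each pair and control 1 with Carbo 1 left out. Named are the 8 members, tested keratins and cluster neighbours, up to 3 called genes of largest change per list, and the 6 likest profiles. Some genes that this rule picks are not reported here. Members and lists were chosen with earlier results of these data known. Alignments used Biopython 1.88 in Python 3.11.15.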

Additional observations from a re-analysis of the deposited data

How the results depend on the processing

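The number of genes called over the whole table depended strongly on the setting, and the cause was not tested. Genes called in Carbo vs control were 0 in the unpaired edgeR fit, 128 with DESeq2, 928 with no filter on low counts, 3771 with the replicate block in the 6 libraries, 1745 with the replicate block and the GC and length trend removed, and 253 without control 1 and Carbo 1. With 1 library left out they ranged from 0 to 1026 (1026 without Carbo 1), and with the block and 1 pair left out they were 4319, 1299 and 2947 for pairs 1, 2 and 3. Genes called in Carbo+COM33 vs Carbo were 816, against 1331 with DESeq2, 1876 with no filter, 1260 with the trend removed, 1554 with the block over 9 libraries, 477 with the block over 6 and 3381 without control 1 and Carbo 1. They ranged from 128 (without Carbo 2) to 2717 (without Carbo 1), and in the block from 279 to 1708. Genes called in Carbo+COM33 vs control were 1035, against 1558 with DESeq2, 1934 with no filter, 1625 with the block over 9 libraries, 1694 with the block and the trend removed, and 2349 without control 1 and Carbo 1. They ranged from 119 (without control 2) to 2189 (without Carbo+COM33 3), and in the block from 317 to 5065.

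Direction turned for the values below, none of them called in the main comparison, and the cause was not tested. In Carbo vs control, KRT8 came to 0.00490 and KRT19 to 0.1152 with the trend removed, and to 0.00519 and 0.1149 with the block as well. With libraries or pairs left out, KRT7 ranged from -0.17 to 0.25, KRT81 from -0.28 to 0.62 and KRT86 from -0.11 to 0.14. The values below 0 of KRT7 were -0.17, -0.11, -0.08 and -0.0226, those of KRT81 -0.28, -0.19, -0.08 and -0.0353, and those of KRT86 -0.11, -0.03 and -0.0306. In Carbo+COM33 vs control, ATG101 came to 0.0553 in the block without pair 1, and LMNB1, which ranged from -0.136 to 0.00293 with 1 library left out, to 0.00293 without control 3 and 0.0271 in the block without pair 3.

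KRT80 in Carbo+COM33 vs Carbo ranged from -0.02 to 0.25 over all settings and KRT87P from -0.13 to 0.19; against control, KRT10 ranged from -0.17 to 0.45 and KRT15 from -0.50 to 0.07.

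For both comparisons with Carbo+COM33 the libraries did not each correlate best with their own number. What else same-numbered libraries share is not known, since the labels do not explain the numbers. In the replicate block over 6 libraries, KRT86 was no longer called in Carbo+COM33 vs Carbo (-1.35) or vs control (-1.30). Against Carbo it was also not called in those 6 libraries with no block, and with the block over all 9 libraries it was called in both comparisons. Counts under about 150 per library limit KRT81 and KRT86, and a fit that leaves 1 pair out has 1 residual degree of freedom.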
